A study of Mus musculus with 16 samples.

Results

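The comparison set the left ventricle 7 days after abdominal surgery (7d, 4 libraries) against the group labelled 0 hours after it (0h, 4 libraries), 8 of the 16 libraries of the series. All 16866 genes with a mean of at least 0.5 TPM (transcripts scaled for gene length and library size) over the 16 libraries were tested, of 57143 genes in the table. The animals were male C57BL/6 mice operated on under sevoflurane, an inhaled anaesthetic, and the other libraries were taken at 3h and 24h, 4 at each time. The 0h group carries the same surgery label as the 7d group, so both share anaesthesia and operation as far as the labels say, and the labels name no group without surgery. They do not give ages, and they do not say whether 0h was sampled before or after the incision. The series title names S100A8/A9, alarm proteins that bind calcium and abound in neutrophils, and to injury of the heart muscle after an operation elsewhere in the body.

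Heart muscle cells make most of the RNA of the ventricle, beside endothelial cells, fibroblasts, mural cells and macrophages. An operation sets off an acute-phase response with stress hormones, neutrophil mobilisation and immediate early transcription factors, which are switched on within minutes by mechanical, hormonal or growth factor signals and fade soon after. Slower processes such as matrix repair, regrowth of muscle proteins and a switch between myosin isoforms follow over days.

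Total counts ran from 8313655 to 12649395 per 0h library and from 10316467 to 12893551 per 7d library. Across genes, which are not independent replicates, Pearson's r of log2 CPM was 0.984 to 0.987 between 0h libraries, 0.980 to 0.987 between 7d libraries and 0.976 to 0.987 between the groups. Whether the libraries are from separate animals is not in the labels, so p-values cover only the spread among these samples, which may be technical. The labelled tissue held markers of heart muscle: Myh6, the adult heart myosin, measured 3843 to 10330 TPM and Tnni3, cardiac troponin I, 6921 to 8816 TPM over the 8 libraries. Markers of neighbouring tissues were low in both groups, at most 9.59 TPM for the atrial light chain Myl7, 0.281 TPM for the liver gene Alb and 3.97 TPM for the fat gene Adipoq. The haemoglobin gene Hbb-bs was uneven, at 57.5 to 734 TPM in the 0h libraries and 85.2 to 409 TPM in the 7d libraries. How much blood each sample held was not tested. 7d replicate 2 stood apart: it had the lowest Myh6 (3843 TPM) and the highest Myh7, the fetal and slow-muscle myosin (4062 TPM, against 30 to 387 TPM in the other 7d libraries).

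Few genes passed the test between 7d and 0h, and those that did were mostly lower at 7d. By edgeR's quasi-likelihood test at an adjusted p under 0.05, 189 genes changed (1.12% of those tested), 37 higher (0.219%) and 152 lower (0.901%). In the same fit 3062 genes (18.2%) differed from 0h at 24h, 9.53% higher and 8.62% lower, and 895 (5.31%) at 3h, 2.01% higher and 3.3% lower, comparisons that use the same 0h libraries. At an unadjusted p under 0.05 the 7d comparison had 2701 genes (16%), 1251 higher and 1450 lower. All 4 libraries of one group lay above all 4 of the other in 1684 genes (9.98%), 331 higher (1.96%) and 1353 lower (8.02%) at 7d.

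Of the 37 genes that rose, 34 code for proteins, and their median log2 fold change was 0.59 in size, with 7 at 1 or more. Of the 152 that fell, 101 code for proteins, 34 are in the class TEC (an annotation class for transcripts that still await experimental evidence, mostly of a single exon), 10 are long noncoding RNAs and 6 are pseudogenes, and 66 fell by 1 or more on the log2 scale. The share of calls that were higher, 19.6%, was 31.9% after a trend of the counts on gene length was removed, 36.6% by DESeq2 and 1.89% by limma on log2(TPM + 1). The calls depended on single libraries: there were 53, 50, 35 and 118 calls with 0h replicate 1, 2, 3 or 4 removed, and 121, 43, 51 and 298 with 7d replicate 1, 2, 3 or 4 removed. Of the 189 genes, 12 that rose and 18 that fell also differed from 24h in the same direction, and 0 in the opposite direction. Both comparisons use the same 7d libraries, which favours the same direction in advance, here and for the genes named below. Among all genes 1424 (8.44%) differed from 24h at 7d, 3.84% higher and 4.6% lower. Against 3h, 821 genes (4.87%) differed at 7d, 1.99% higher and 2.88% lower.

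**Figure D1:**
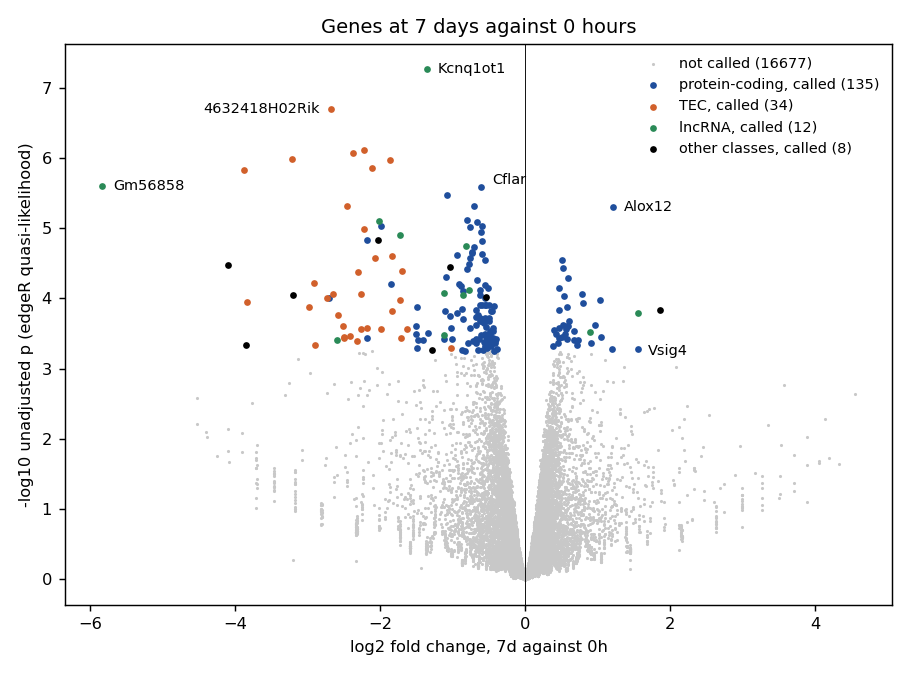
Each point is 1 of the 16866 genes, by its log2 fold change of 7d against 0h and the -log10 of its unadjusted p from edgeR. Coloured points are the 189 genes called, of which 152 lie left of 0, among them all 34 called TEC genes.

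The 15 largest rises included 3 transcription regulators, a growth factor and an enzyme of lipid mediators. Alox12, the platelet-type 12-lipoxygenase that oxygenates arachidonic acid, measured 3.66, 2.61, 2.22 and 3.3 TPM at 0h, in the order of the replicates, and 8.01, 6.59, 6.52 and 5 TPM at 7d. The lowest 7d library lay above the highest 0h library, and the gene rose (adjusted p = 0.00593 at a log2 fold change of 1.21 ± 0.2 SE). It was the only one of the 15 that stayed called without each of the 8 libraries in turn (adjusted p at most 0.0373), and it did not differ from 24h by the test (6.92 ± 1.43 TPM, mean ± SD of 4 libraries; adjusted p = 0.536).

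Irx4 and Irx3 encode Iroquois homeobox factors, Irx4 of the ventricular muscle and Irx3 of the ventricular conduction system. Irx4 (ENSMUSG00000021604, chromosome 13, 73260479 to 73269608, + strand) measured 39.8, 35.1, 40.4 and 41.4 TPM at 0h and 63.4, 55, 62.9 and 53.6 TPM at 7d, with no overlap (adjusted p = 0.0391 at a log2 fold change of 0.68 ± 0.16 SE). At 24h it stood at 34 ± 14.3 TPM, below its 7d level (0.71 on the log2 scale, adjusted p = 0.00733 for 7d against 24h). Irx3 (ENSMUSG00000031734, chromosome 8, 91798525 to 91802067, - strand) measured 40.2, 34.4, 34.1 and 36.1 TPM at 0h and 44.9, 52.5, 43.4 and 62.9 TPM at 7d (adjusted p = 0.0188 at a log2 fold change of 0.59 ± 0.12 SE). Rcor2, a corepressor of the REST complex, rose from 4.59 ± 1 to 8.52 ± 2 TPM (0.96 on the log2 scale, adjusted p = 0.0374) and was also higher than at 24h (adjusted p = 0.00115). Irx4 and Rcor2 kept their call only without 7d replicate 4 when 1 library was left out. Irx3 lost its call without 0h replicates 2 or 3 or 7d replicate 2 (adjusted p up to 0.124, Rcor2).

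Pdgfa, a ligand of the platelet-derived growth factor receptor on fibroblasts, measured 19.8, 17.8, 18.5 and 19.4 TPM at 0h and 33.3, 26.3, 33.3 and 29.1 TPM at 7d. All 7d libraries lay above all 0h libraries (adjusted p = 0.0235 at a log2 fold change of 0.78 ± 0.16 SE), and the level was higher than at 24h (19.4 ± 6.66 TPM, adjusted p = 0.0402). Mid1ip1, which promotes the polymerisation of acetyl-CoA carboxylase in fatty acid synthesis, measured 137, 145, 133 and 152 TPM at 0h and 321, 210.3, 222 and 180.1 TPM at 7d (adjusted p = 0.0268 at a log2 fold change of 0.80 ± 0.17 SE). Its 7d replicate 1 was the highest and replicate 4 the lowest, still above every 0h library. Tspo, a protein of the outer mitochondrial membrane, rose from 104 ± 13.8 to 147 ± 22 TPM (0.60 on the log2 scale, adjusted p = 0.0374), and Nudc, a dynein-associated cochaperone, from 183 ± 10.3 to 257 ± 47.7 TPM (0.58 on the log2 scale, adjusted p = 0.0276). Yjefn3 rose by 1.03 on the log2 scale (adjusted p = 0.0252) and Rasl11b, a small GTPase, by 1.04 (adjusted p = 0.042). Rhd, of the Rhesus family (0.92 on the log2 scale, adjusted p = 0.0432), and Phlda1 (0.68 on the log2 scale, adjusted p = 0.042) rose as well. The last of the 15 were Uri1, a prefoldin-like protein (0.61 on the log2 scale, adjusted p = 0.0346), Scand1 (0.58 on the log2 scale, adjusted p = 0.0374) and Cutc, a copper-binding protein (0.56 on the log2 scale, adjusted p = 0.0381). Of the 15, 4 were also higher than at 24h, namely Irx4, Rcor2, Pdgfa and Yjefn3, and 11 stayed called after the length trend was removed. When 1 library was left out, the call held only without 0h replicate 4 or 7d replicate 4 for Mid1ip1 and Rasl11b, without 7d replicate 4 for Tspo, Uri1 and Rhd, without 7d replicate 1 for Phlda1, without 0h replicate 1 or 7d replicates 1 or 4 for Yjefn3 and without 7d replicates 1 or 4 for Cutc and Scand1. Pdgfa lost its call without 0h replicates 1, 2 or 3 or 7d replicate 3 and Nudc lost its call without 0h replicates 1, 2 or 3 or 7d replicate 2 (adjusted p up to 0.182, Rhd).

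Vsig4, a complement receptor of resident macrophages, had the largest fitted rise of the called coding genes (adjusted p = 0.0486 at a log2 fold change of 1.55 ± 0.38 SE). Its libraries overlapped, with 2.35, 1.09, 3.05 and 4.65 TPM at 0h and 7.82, 11.8, 6.88 and 3.56 TPM at 7d, and it lies outside the naming rule and was chosen after its values were seen. So were 2 further rises without overlap, given next. Tmem109, a membrane protein gene, measured 95.9, 82.9, 88.1 and 84.6 TPM at 0h and 121, 117, 110.4 and 118 TPM at 7d (0.51 on the log2 scale, adjusted p = 0.0131). Pacsin3, a muscle protein of membrane trafficking, rose from 131 ± 4.53 to 169 ± 16.2 TPM (0.47 on the log2 scale, adjusted p = 0.0283). Both were also higher than at 24h (adjusted p = 0.00146 and 7.37e-04). Of 23 resident macrophage genes, all tested, 0 passed the test in either direction, where 1.12% of all genes did. Their median log2 fold change was 0.16, beside 0.00 for all genes. Of the 8 libraries, leaving out 1 kept the call only without 0h replicate 4 or 7d replicate 4 for Vsig4 and without 7d replicates 1 or 4 for Pacsin3. Tmem109 lost its call without 0h replicates 2 or 3 or 7d replicate 2 (adjusted p up to 0.2, Vsig4). In these bulk samples more cells of a type and more RNA per cell cannot be told apart.

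Atf4 rose and Chac1, a target of the same stress pathway, fell. ATF4 is the transcription factor of the integrated stress response, and Chac1 encodes an enzyme that breaks down glutathione and is a known ATF4 target. Chac1 (ENSMUSG00000027313, chromosome 2, 119351229 to 119354381, + strand, build GRCm38) measured 9.3, 13.8, 17.5 and 4.82 TPM at 0h and 3.45, 2.67, 1.98 and 3.52 TPM at 7d. The groups did not overlap, although 0h replicate 4 was near the 7d range, and the gene fell (adjusted p = 0.0209 at a log2 fold change of -1.84 ± 0.37 SE). It also stood below its 24h level of 13 ± 4.4 TPM (-2.30 on the log2 scale, adjusted p = 4.18e-04). Atf4 (ENSMUSG00000042406, chromosome 15, 80255184 to 80257541, + strand) measured 96.6, 102, 108 and 96.9 TPM at 0h and 147, 137, 138 and 104 TPM at 7d, and rose (adjusted p = 0.038 at a log2 fold change of 0.47 ± 0.11 SE), with 7d replicate 4 inside the 0h range.

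The bases before the RefSeq start site of Chac1 hold 2 letter strings of the kind bound by ATF4 with its partners, so they are shown here with both in capitals (GRCm38.p6, chr2:119350992-119351228, + strand, cut before the first annotated exon base).
Chac1: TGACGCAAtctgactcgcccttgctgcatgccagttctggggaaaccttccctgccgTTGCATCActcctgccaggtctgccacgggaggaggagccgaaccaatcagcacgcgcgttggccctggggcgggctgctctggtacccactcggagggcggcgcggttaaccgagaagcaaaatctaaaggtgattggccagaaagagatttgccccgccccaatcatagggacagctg
The strings searched were TGACGCAA and TGATGCAA on both strands; the second appears as its reverse complement TTGCATCA, and the matches do not overlap. In the 250 bases before the start, 0.438% of the 32851 RefSeq promoter entries hold the first, 0.791% the second and 0.0152% (5 entries) both. A match describes the letters in this window and does not show binding.

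Of 30 genes listed for ATF4 and the integrated stress response, 24 were tested. Among them 1 rose (Atf4) and 1 fell (Chac1), where 0.219% of all genes rose and 0.901% fell. The median log2 fold change was 0.10. The next members by p did not pass. Cebpg, a partner of ATF4, measured 31.8 ± 4.72 TPM at 0h and 22.8 ± 3.05 TPM at 7d (-0.38 on the log2 scale, adjusted p = 0.105). Psat1, of serine synthesis, measured 2.66 ± 0.537 TPM at 0h and 3.91 ± 0.518 TPM at 7d (adjusted p = 0.134). Gdf15, a secreted stress protein, measured 2.69, 1.57, 2.65 and 1.95 TPM at 0h and 5.14, 33.2, 2.82 and 2.73 TPM at 7d, with 7d replicate 2 far above the rest (2.45 on the log2 scale, adjusted p = 0.186). Its log2 fold change was 0.71 without that library. Atf4 kept its call only without 7d replicate 4 when 1 library was left out. Chac1 lost its call without 0h replicates 2 or 3 or 7d replicates 2 or 3 (adjusted p up to 0.125, Atf4).

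Of the immediate early genes 3 fell, Egr1 by the most. Egr1 (ENSMUSG00000038418), a zinc finger factor induced by stretch, growth factors and hormones, measured 77.1, 21.4, 60.1 and 40.9 TPM at 0h and 9.69, 7.95, 14.2 and 9.11 TPM at 7d. The groups were apart, the 0h libraries varied among themselves widely, and the gene fell (adjusted p = 0.00982 at a log2 fold change of -2.18 ± 0.33 SE), a call kept without each of the 8 libraries in turn (adjusted p at most 0.0478). At 3h and 24h it measured 9.68 ± 2.44 and 8.28 ± 2.49 TPM, and 7d did not differ from 24h by the test (0.20 on the log2 scale, adjusted p = 0.795). With the 0h and 7d libraries fitted alone the adjusted p was 0.0566.

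Egr2, a relative of Egr1, measured 3.82, 2, 2.33 and 2.03 TPM at 0h and 0.963, 0.338, 1.54 and 0.637 TPM at 7d, with no overlap (adjusted p = 0.0374 at a log2 fold change of -1.50 ± 0.34 SE). Genes of this class are classical targets of serum response factor, whose site is known as the CArG box. Of the 5 start sites that RefSeq gives for Egr2, 3 have the same CArG box within the 250 bases before them, and the first of these windows is printed with it in capitals (GRCm38.p6, chr10:67537619-67537868, + strand).
Egr2: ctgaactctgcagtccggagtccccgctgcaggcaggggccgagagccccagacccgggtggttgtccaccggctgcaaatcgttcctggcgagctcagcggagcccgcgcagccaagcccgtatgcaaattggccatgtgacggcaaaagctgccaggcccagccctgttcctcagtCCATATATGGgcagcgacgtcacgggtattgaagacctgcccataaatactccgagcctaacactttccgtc
The CArG box reads alike on both strands, and 1.47% of the 32851 promoter entries hold one in that window. The match describes the letters only.

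Of 32 immediate early genes listed, 29 were tested; 0 rose, 3 fell (Egr1, Egr2 and Klf4), 22 had a negative log2 fold change and the median was -0.30, or -0.16 without 0h replicate 1. Among all genes tested 0.901% fell and 49.6% had a positive log2 fold change. Klf4, a factor of endothelial and smooth muscle cells, measured 120.2, 96.8, 114 and 63.5 TPM at 0h and 45.4, 72.9, 54.7 and 58.7 TPM at 7d (adjusted p = 0.0489 at a log2 fold change of -0.65 ± 0.16 SE); 0h replicate 4 lay inside the 7d range. Fos, of the AP-1 complex, did not pass, with 12.9, 4.54, 10.3 and 5.31 TPM at 0h and 1.9, 4.2, 5.4 and 1.63 TPM at 7d (-1.21 on the log2 scale, adjusted p = 0.089). Klf6 did not pass either (97 ± 16.1 against 65.9 ± 7.23 TPM, adjusted p = 0.0791). All 12 Kruppel-like factors tested of 16 listed had a negative log2 fold change, with a median of -0.44 at 7d, -0.15 at 24h and -0.14 at 3h; the 3 values share the 0h libraries. Of these, 2 fell, Klf4 and the repressor Klf3. Klf3 measured 23.9, 23.6, 22.8 and 18.6 TPM at 0h and 17.9, 15, 12.4 and 16 TPM at 7d, without overlap (-0.45 on the log2 scale, adjusted p = 0.042). Klf9, a target of glucocorticoids, did not pass (173 ± 26.6 against 119.5 ± 22.6 TPM, adjusted p = 0.191). Klf3 was not called after the length trend was removed (log2 fold change -0.29, adjusted p = 0.184). Of the 8 libraries, leaving out 1 kept the call only without 0h replicate 4 or 7d replicate 3 for Egr2, without 0h replicate 4 or 7d replicate 2 for Klf4 and without 0h replicate 4 or 7d replicate 1 for Klf3 (adjusted p up to 0.168, Klf4).

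No gene of the glucocorticoid response passed the test at 7d, which in a list of this size is near the 1.12% called among all genes. Of 29 listed, 28 were tested and 0 passed; 22 had a negative log2 fold change and the median was -0.40 at 7d (-0.66 without 7d replicate 2), against 0.44 at 24h and 0.83 at 3h. Directly against 24h, 8 were lower at 7d and 1 higher, beside 4.6% and 3.84% of all genes. Pdk4, which blocks pyruvate oxidation, measured 671, 679, 833 and 279 TPM at 0h and 282, 91.4, 276 and 191 TPM at 7d (-1.46 on the log2 scale, adjusted p = 0.174), and 1350.3 ± 744 TPM at 24h (-2.87 on the log2 scale, adjusted p = 0.00455 for 7d against 24h). Sgk1, a kinase of salt handling, measured 57 ± 20 TPM at 0h and 30.9 ± 6.51 TPM at 7d (adjusted p = 0.175), and the phosphatase gene Dusp1 97.4 ± 32.5 and 57 ± 7.21 TPM (adjusted p = 0.16). For Pdk4, Sgk1 and Dusp1 the lowest 0h value was in replicate 4, inside the 7d range.

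**Figure D2:**
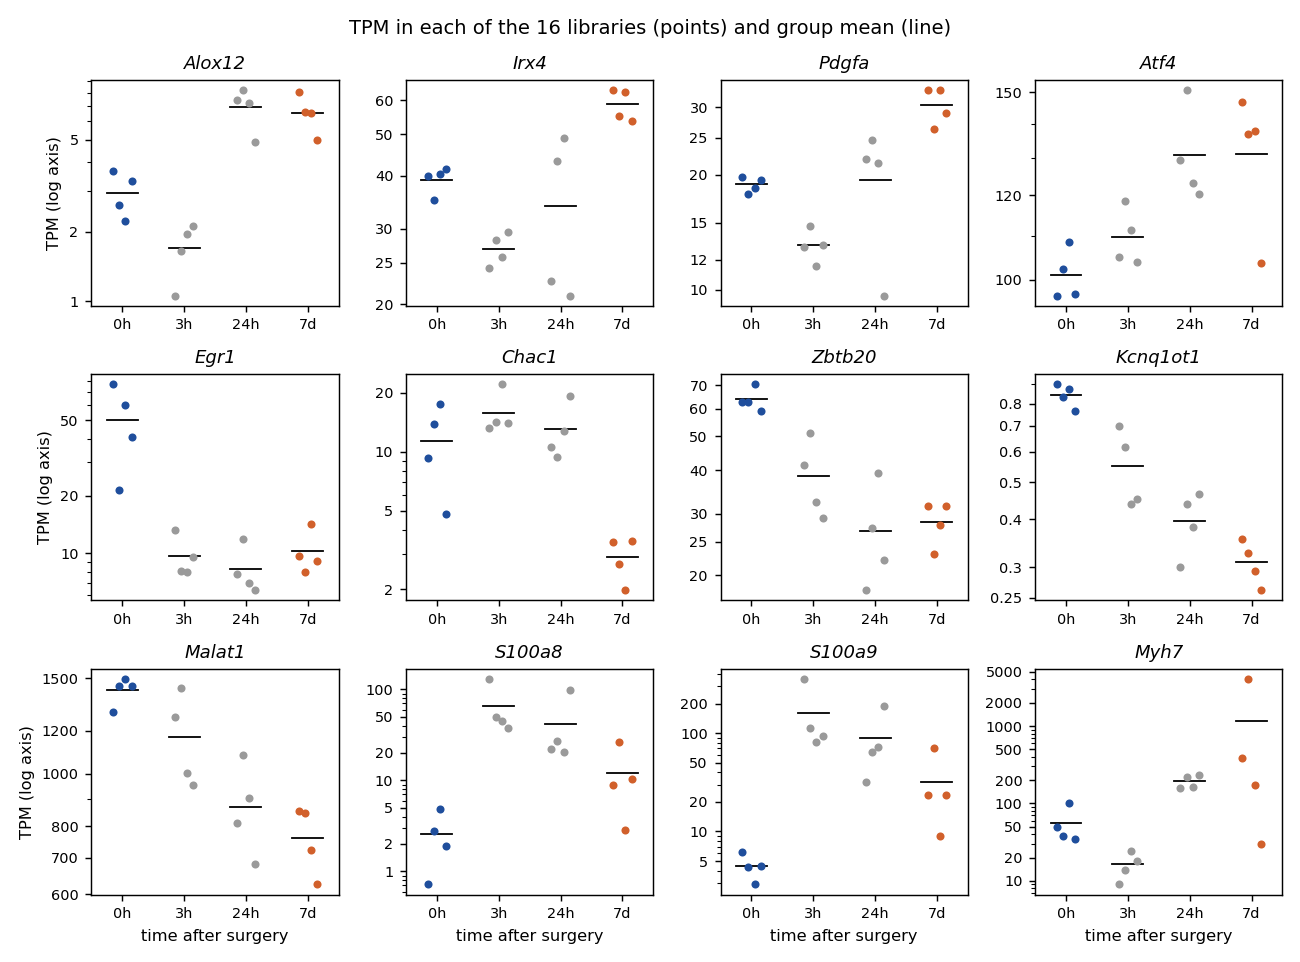
TPM of 12 genes in each of the 16 libraries on log axes, with points for libraries (replicates 1 to 4 from left to right) and lines for group means. The 0h and 7d points do not overlap for Alox12, Irx4, Pdgfa, Egr1, Chac1, Zbtb20, Kcnq1ot1, Malat1 and S100a9, and they overlap for Atf4, S100a8 and Myh7.

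Among coding genes, falls that held in every leave-one-out fit included those of a transcription repressor and an inhibitor of cell death. Zbtb20 (ENSMUSG00000022708, chromosome 16, 42875881 to 43642602, + strand), a zinc finger repressor with a long gene and transcript, measured 62.5, 62.8, 70.3 and 59.1 TPM at 0h and 31.5, 23, 27.9 and 31.6 TPM at 7d, well apart (adjusted p = 0.00507 at a log2 fold change of -1.07 ± 0.17 SE). It was called under every alternative tried, with its log2 fold change at -0.71 once the length trend was removed. Cflar (ENSMUSG00000026031, chromosome 1, 58711508 to 58758884, + strand), which encodes c-FLIP, an inhibitor of caspase-8, measured 25.3, 22.4, 21.2 and 21.1 TPM at 0h and 14.5, 13.8, 13.9 and 13.2 TPM at 7d, with no overlap (adjusted p = 0.00433 at a log2 fold change of -0.61 ± 0.1 SE). Neither differed from 24h by the test (26.8 ± 9.18 and 12.2 ± 2.64 TPM; adjusted p = 0.983 and 0.687).

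Other large falls included receptors and signalling genes. Fgfr3, a fibroblast growth factor receptor, measured 7.81, 9.35, 11.3 and 4.87 TPM at 0h and 4.41, 3.82, 3.17 and 4.73 TPM at 7d (adjusted p = 0.0297 at a log2 fold change of -0.94 ± 0.21 SE). Klhl38, a kelch-like protein of striated muscle, measured 62, 57.4, 65 and 40.3 TPM at 0h and 26.8, 29.6, 18.7 and 36.1 TPM at 7d (adjusted p = 0.0209 at a log2 fold change of -0.91 ± 0.18 SE). For both, 0h replicate 4 was the lowest 0h library and 7d replicate 4 the highest 7d library, without overlap. Both were also below 24h (adjusted p = 8.78e-04 and 0.0142), as was Chac1. Zfp169, a zinc finger gene, fell by 1.49 on the log2 scale (adjusted p = 0.0276) and Tagap, a GTPase-activating protein of T cells, fell by 1.34 (adjusted p = 0.0409). Fam78b (-1.10 on the log2 scale, adjusted p = 0.0283) and Dgkh, a diacylglycerol kinase (-0.94 on the log2 scale, adjusted p = 0.0125), fell too. Pcdhga12, a gamma-protocadherin, also fell (-1.12 on the log2 scale, adjusted p = 0.042), but its gene shares exons and span with the rest of its cluster, so its counts are uncertain. Of the 15 largest falls, 4 (Egr1, Lncpint, Carmn and Zbtb20) stayed called without each of the 8 libraries in turn, 3 were also lower than at 24h and 13 stayed called after the length trend was removed. When 1 library was left out, the call held only without 0h replicate 4 or 7d replicate 4 for Fgfr3 and Tagap, without 0h replicate 4 or 7d replicates 2 or 4 for Klhl38, without 0h replicate 4 or 7d replicates 1 or 4 for Zfp169 and without 7d replicate 4 for Fam78b and Pcdhga12. Dgkh lost its call without 0h replicates 1 or 3 or 7d replicates 2 or 3 (adjusted p up to 0.168, Pcdhga12).

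Crebbp, Tet2, Hdac4 and Bptf, genes of chromatin proteins that belong to no list here, were also among the 152 and were chosen after their values were seen. Crebbp, a histone acetyltransferase, measured 11.6, 9.5, 10.4 and 9.15 TPM at 0h and 7.65, 5.08, 5.85 and 6.48 TPM at 7d (adjusted p = 0.00874 at a log2 fold change of -0.61 ± 0.11 SE). Tet2, a methylcytosine oxidase, fell from 7.11, 5.86, 7.27 and 6.66 TPM at 0h to 5.18, 3.71, 3.25 and 3.92 TPM at 7d (-0.66 on the log2 scale, adjusted p = 0.0196). Hdac4, a histone deacetylase, fell from 6.72 ± 1 to 4.29 ± 0.292 TPM (-0.55 on the log2 scale, adjusted p = 0.0272). Bptf, a subunit of a nucleosome remodeller, fell from 18.7 ± 2.19 to 12.3 ± 2.13 TPM (-0.51 on the log2 scale, adjusted p = 0.0438). Their gene lengths in the table are 13540, 16870, 15813 and 14081 bases, all in the longest of 5 equal length classes of coding genes. Without the length trend the adjusted p was 0.0569 for Crebbp, 0.0478 for Tet2, 0.266 for Hdac4 and 0.142 for Bptf. Of the 8 libraries, leaving out 1 kept the call only without 0h replicate 4 or 7d replicate 4 for Hdac4 and without 7d replicate 4 for Bptf. Tet2 lost its call without 0h replicates 1 or 3 or 7d replicates 2 or 3 (adjusted p up to 0.169, Bptf).

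Several long noncoding RNAs that stay in the nucleus fell. Kcnq1ot1 (ENSMUSG00000101609, chromosome 7, 143203458 to 143296549, - strand), an imprinted RNA transcribed against Kcnq1, had the smallest p of all genes. It measured 0.898, 0.832, 0.874 and 0.765 TPM at 0h and 0.356, 0.327, 0.293 and 0.262 TPM at 7d, so that every 7d library was below every 0h library (adjusted p = 9.22e-04 at a log2 fold change of -1.35 ± 0.17 SE). Kcnq1, on the opposite strand and given as its partner after its values were seen, measured 27.3 ± 2.81 TPM at 0h and 30.2 ± 6.19 TPM at 7d (adjusted p = 0.65). Reads from such a pair can be told apart only if the counting used strand, which is not given in the sources used here. Kcnq1ot1 is 93651 bases long and was not called after the length trend was removed (log2 fold change -0.75, adjusted p = 0.116).

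Malat1 (ENSMUSG00000092341, chromosome 19, 5795690 to 5802672, - strand), an abundant RNA of nuclear speckles, measured 1298, 1454, 1497 and 1449.9 TPM at 0h and 853, 848, 723 and 625 TPM at 7d. The fall was well outside the spread of either group (adjusted p = 0.0112 at a log2 fold change of -0.81 ± 0.15 SE) and was called under every alternative tried. Its mean was 1168 ± 230.3 TPM at 3h and 869.7 ± 169 TPM at 24h, and 7d did not differ from 24h by the test (adjusted p = 0.235). Neat1, the scaffold of paraspeckles and a neighbour of Malat1, was chosen after its values were seen and measured 104 ± 9.05 and 88.1 ± 31.1 TPM (-0.13 on the log2 scale, adjusted p = 0.853).

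Lncpint, a p53-responsive RNA, measured 2.26, 2.74, 4.25 and 2.33 TPM at 0h and 0.622, 0.854, 0.607 and 0.53 TPM at 7d (adjusted p = 0.00796 at a log2 fold change of -2.01 ± 0.34 SE). Carmn, an RNA of smooth muscle and heart, measured 1.9, 2.07, 2.04 and 2.1 TPM at 0h and 0.536, 0.46, 0.847 and 0.433 TPM at 7d (adjusted p = 0.00905 at a log2 fold change of -1.72 ± 0.31 SE). The groups did not overlap for either. Airn, an imprinted RNA transcribed against Igf2r, fell from 15.1 ± 2.01 to 7.83 ± 1.03 TPM (-0.85 on the log2 scale, adjusted p = 0.0235), while Igf2r, also chosen after its values were seen, stood at 66 ± 4.81 and 59.4 ± 11.8 TPM (adjusted p = 0.892). Of 21 long noncoding RNAs listed, 15 were tested; 4 fell (Kcnq1ot1, Malat1, Carmn and Airn), 0 rose and the median was -0.13. Of all 1883 long noncoding RNAs tested 10 fell (0.531%), beside 0.901% of all genes. Dancr, at 2.2 ± 0.79 TPM at 0h and 4.3 ± 0.583 TPM at 7d, did not pass (1.10 on the log2 scale, adjusted p = 0.0549). Rn7sk, the 7SK RNA that holds the elongation factor P-TEFb, measured 22.6, 27.3, 37.6 and 28.8 TPM at 0h and 14.4, 13.2, 6.77 and 9.44 TPM at 7d (adjusted p = 0.0489 at a log2 fold change of -1.29 ± 0.32 SE); its groups did not overlap. Airn kept its call only without 0h replicate 4 or 7d replicates 1 or 4 when 1 library was left out. Rn7sk lost its call without any 1 library (adjusted p up to 0.168, Rn7sk). The labels give a polyA kit, and how well it captures Rn7sk in each library was not tested.

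TEC genes inside introns made up a large part of the falls. Of 409 TEC genes tested, 0 rose and 34 fell (8.31%, beside 0.901% of all genes), and their median log2 fold change was -0.53 at 7d, -0.50 at 24h and -0.18 at 3h. Of these, 243 lie inside an intron of a coding gene on the same strand; 32 of them fell (13.2%), with a median of -0.99. Of the 151 with no coding gene on their strand, 2 fell and the median was -0.17. With the 5 intronic TEC genes that had no read in one group set to a floor of 3 counts over that group, and 2 left out because the other group was at the floor, the intronic median was also -0.99. The 91 long noncoding RNAs inside introns had a median of -0.58, with 1 called lower, and the 1212 with no coding gene on their strand a median of 0.01. Coding genes on the other strand, and those not tested, were not considered in these classes.

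The coding genes around them had smaller fold changes. Over 190 distinct hosts the median log2 fold change was -0.08, and 205 of the 243 TEC genes had a lower fold change than their host. TEC genes near the filter on mean TPM can pass it through the times at which they are high, 0h among them. That favours falls from 0h in advance, more than for their hosts, most of which have higher TPM. The medians and counts of TEC genes, here and above, thus describe the genes tested only. For the 32 called, the median was -2.34 for the TEC gene and -0.16 for the host, and 2 hosts were called lower, Rc3h1 and Snrk. Snrk, a kinase gene, measured 105, 85.2, 99.1 and 64.6 TPM at 0h and 57.7, 54.1, 45.6 and 67.1 TPM at 7d (-0.56 on the log2 scale, adjusted p = 0.0353). Rc3h1, an RNA-binding ubiquitin ligase, measured 18.7, 18.3, 25 and 16.8 TPM at 0h and 13.9, 9.16, 9.68 and 11.9 TPM at 7d (-0.73 on the log2 scale, adjusted p = 0.0125). Both hosts are named after their values were seen. Snrk kept its call only without 0h replicate 4 or 7d replicate 4 when 1 library was left out. Rc3h1 lost its call without 0h replicate 3 or 7d replicates 2 or 3 (adjusted p up to 0.13, Snrk). Gm47493 (ENSMUSG00000112947, chromosome 13, 12047342 to 12052055, - strand), in an intron of Ryr2, the calcium release channel of heart muscle, measured 4.5, 5.28, 5.6 and 5.02 TPM at 0h and 1.58, 1.07, 1.11 and 1.48 TPM at 7d (adjusted p = 0.00299 at a log2 fold change of -1.86 ± 0.28 SE). Tiaf2, a TEC gene in an intron of Ank, fell too (-2.07 on the log2 scale, adjusted p = 0.0128) and lost its call without 0h replicates 1 or 3 (adjusted p up to 0.0537). Ryr2, chosen after its values were seen, measured 152 ± 7.51 TPM at 0h and 110.2 ± 36 TPM at 7d (adjusted p = 0.471).

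**Figure D3:**
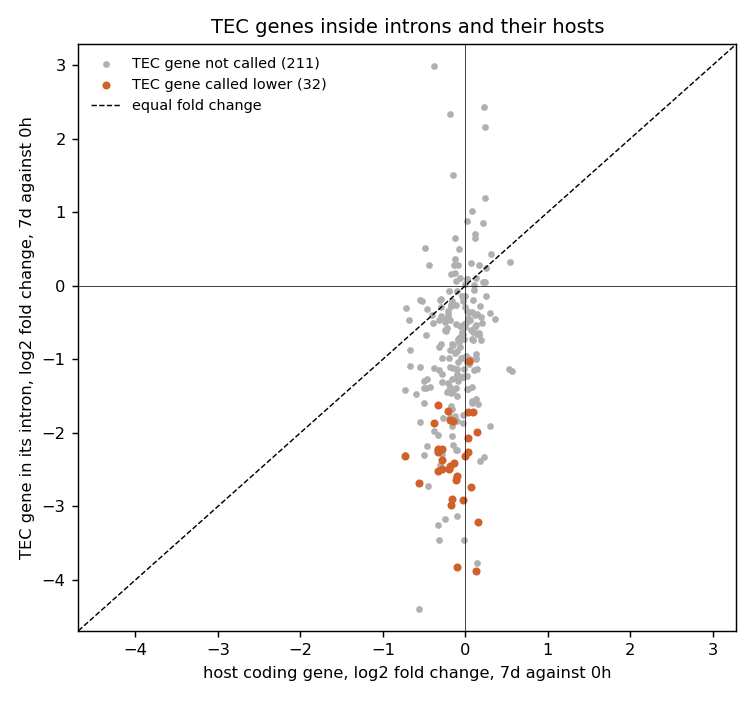
Each point is 1 of 243 TEC genes inside an intron, with the log2 fold change of 7d against 0h of the TEC gene on the vertical axis and of its host gene on the horizontal axis. The hosts spread between -0.73 and 0.56, and 205 points lie below the dashed line of equal fold change.

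The 10 genes of smallest p were Kcnq1ot1, Cflar, the noncoding Gm56858 and 7 TEC genes, and each stayed called without every one of the 8 libraries in turn. These TEC genes were Gm47493, 4632418H02Rik in Snrk, Gm37033 in Itpkb (-2.22 on the log2 scale, adjusted p = 0.00299), Gm37677 in Ppp1r12b (-2.37 on the log2 scale, adjusted p = 0.00299), Gm47586 in 2010111I01Rik (-3.21 on the log2 scale, adjusted p = 0.00299), Gm48880 in Cradd and Gm37352, which has no coding gene on its strand (-2.11 on the log2 scale, adjusted p = 0.00316). Gm48880 had 15, 10, 9 and 11 reads in the 0h libraries and 0, 1, 1 and 1 in the 7d libraries, a ratio of 18.0 (95% counting interval 5.77 to 90.5, scaled by library totals). Gm56858 had 28 reads at 0h and 0 at 7d, at least 11.2-fold lower against a floor of 3 counts over the group. Reads that fall in an intron can also come from unspliced RNA of the host, and counts of such genes are uncertain where the strand setting is not given. TEC genes took 0.0948 ± 0.0028% of the counts at 0h, 0.0767 ± 0.0105% at 3h, 0.0569 ± 0.0097% at 24h and 0.0596 ± 0.0053% at 7d (mean ± SD, n = 4).

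Gene length moved with the direction of the calls. Genes that rose had a median length of 2607 bases in the deposited table, and those that fell 5897 bases. Among coding genes the medians were 2482.5 and 8366 bases, against 4415.5 bases for coding genes not called. In 5 equal classes of coding genes from shortest to longest, 17, 8, 6, 2 and 1 rose and 4, 10, 12, 20 and 55 fell. The median log2 fold change ran from 0.15 in the shortest class over 0.08, 0.02 and -0.04 to -0.14 in the longest. The trend was not particular to 7d. Against the same 0h libraries the medians ran from 0.22 to -0.20 at 24h and from 0.21 to -0.19 at 3h. In the longest class 532 genes were called lower at 24h and 281 at 3h. Against 24h the 7d medians ran the other way, from -0.08 to 0.05.

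After a trend of the log counts on length was removed in each library, 138 genes were called, 44 higher and 94 lower. TEC genes made up 32 of the falls, while coding genes split into 41 higher and 48 lower, against 34 and 101 before. Whether the length trend reflects the tissue or the libraries was not tested. Single-exon genes made up 5.41% of the rises, 27.5% of the falls and 14% of the genes not called.

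**Figure D4:**
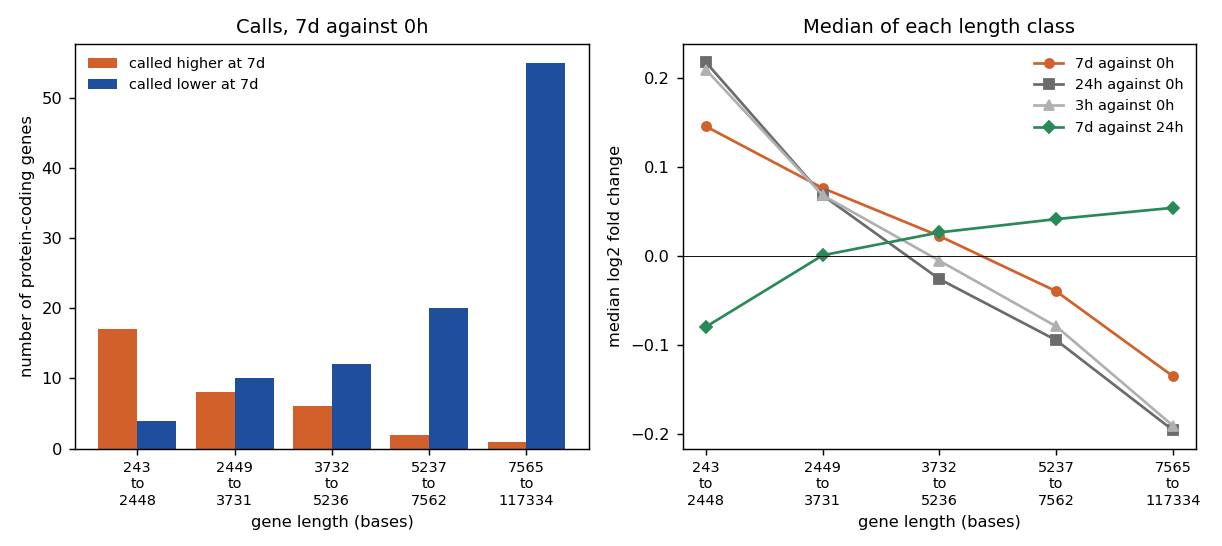
Left, protein-coding genes called higher or lower at 7d in each of 5 classes of gene length in bases; right, the median log2 fold change of each class in 4 comparisons, of which 3 share the 0h libraries. Falls climb from 4 in the shortest to 55 in the longest class, and rises drop from 17 to 1.

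S100a8 and S100a9 were above 0h at 7d in most libraries but did not pass the test. S100a8 (ENSMUSG00000056054, chromosome 3, 90668978 to 90670035, + strand) measured 0.719, 2.79, 4.89 and 1.89 TPM at 0h and 9, 26.5, 2.87 and 10.4 TPM at 7d; 7d replicate 3 lay inside the 0h range (adjusted p = 0.368 at a log2 fold change of 2.47 ± 1.27 SE). S100a9 (ENSMUSG00000056071, chromosome 3, 90692632 to 90695721, - strand) measured 6.21, 4.34, 2.89 and 4.41 TPM at 0h and 23.4, 70.5, 9.07 and 23.5 TPM at 7d, with every 7d library above every 0h library (adjusted p = 0.263 at a log2 fold change of 2.89 ± 1.2 SE). DESeq2 gave S100a9 an adjusted p of 0.011. Both were highest in 7d replicate 2, without which the log2 fold changes were 1.68 and 2.06. An exact two-sided permutation test on log2(TPM + 1) gave p = 0.0571 for S100a8 and p = 0.0286 for S100a9, the smallest that 70 orderings of 4 against 4 allow.

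No neutrophil gene passed at 7d, where 1.12% of all genes did. Of 24 listed, 16 were tested; 0 passed, 14 had a positive log2 fold change and the median was 1.39, or 1.03 with the 2 genes that had no read at 0h at their bound and 1 left out. Such genes pass the filter on mean TPM through the times at which they are high, so the median describes these genes only. At 24h 11 of the 16 were higher than at 0h (9.53% of all genes were), with a median of 3.16. At 7d 5 were lower than at 24h (4.6% of all genes were). The filter favours such counts for genes with few reads at 0h, so no conclusion is drawn from them. Cxcr2, a chemokine receptor of neutrophils, had 3 reads at 0h and 20 at 7d, of which 17 in 7d replicate 2. G0s2, which inhibits fat lipase and is expressed in muscle too, measured 144, 173, 157 and 198 TPM at 0h and 436, 179, 389 and 229 TPM at 7d (0.96 on the log2 scale, adjusted p = 0.171), and held most of the list's summed TPM. Retnlg, of granulocytes and chosen after its values were seen, measured 1.51, 5.82, 1.68 and 0.811 TPM at 7d and 15.4 ± 10.1 TPM at 24h (-2.69 on the log2 scale, adjusted p = 0.0211 for 7d against 24h). The monocyte gene Chil3 had 1 read at 0h and 30 at 7d, of which 22 in 7d replicate 2 (adjusted p = 0.134).

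Acute-phase genes that were high at 24h held no call at 7d. Over all genes tested, 18.2% differed from 0h at 24h (9.53% higher), 1.12% differed from 0h at 7d and 4.6% were lower at 7d than at 24h. At the 7d share, 0 calls in a list of this size is near the background, and the counts below are read against these shares. Of the 64 gene lists, 53 had no gene called at 7d. The medians of 26 of the 64, all between -0.13 and 0.11, changed sign under another scaling, on log2 TPM, with quality weights or after the length correction (10 of them under another scaling of the counts alone), so no direction is read from medians of that size. Fits with 1 library left out are not in this count, and in these some larger medians changed sign too. The acute-phase list (29 tested of 34) had a median of 0.18 at 7d (0.01 without 7d replicate 2) and 0.81 at 24h, with 12 higher at 24h, 0 at 7d and 9 lower at 7d than at 24h. Serpina3n, a protease inhibitor of the acute phase, measured 18.4, 11.4, 20.6 and 8.92 TPM at 0h and 38.6, 35, 21.4 and 19.2 TPM at 7d (1.04 on the log2 scale, adjusted p = 0.144), against 185 ± 53.3 TPM at 24h (-2.83 on the log2 scale, adjusted p = 6.61e-05). Its 7d libraries overlapped those of 0h and lay far below the 24h mean. Saa3 had 1 read at 0h and 15 at 7d (adjusted p = 0.257), and was lower than at 24h (adjusted p = 0.00225).

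Genes of antioxidant defence and fat burning were often higher at 24h than at 0h, beside 9.53% of all genes, and part of them were lower at 7d than at 24h, beside 4.6%. Of 50 NRF2 target and antioxidant genes tested of 52, 31 were higher at 24h, 0 passed at 7d (background 1.12%) and 13 were lower at 7d than at 24h; the 7d median was 0.20, with 40 positive. Gstm2, a glutathione transferase, measured 155, 147, 153 and 165 TPM at 0h and 221, 234, 175 and 174 TPM at 7d (adjusted p = 0.0673). Its relative Gstp1 measured 164, 145, 134 and 137 and 178, 198, 219 and 198 TPM (adjusted p = 0.0757), and neither overlapped. Of 30 fatty acid oxidation genes, 17 were higher at 24h, 0 passed at 7d (median 0.11) and 8 were lower than at 24h. Of 37 PPARA target and lipid uptake genes tested of 42, 18 were higher at 24h, 0 passed at 7d (median 0.00) and 20 were lower than at 24h. Angptl4, which inhibits lipoprotein lipase, measured 26.5, 21.2, 10.8 and 11.4 TPM at 0h and 9.75, 1.17, 2.46 and 5.7 TPM at 7d (-1.85 on the log2 scale, adjusted p = 0.2), lower than at 24h (adjusted p = 0.019).

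Collagen, cell cycle, cytoskeleton and tip cell genes held 0 calls at 7d, where 1.12% of all genes were called, and some were higher at 7d than at 24h, as were 3.84% of all genes. At 24h 8.62% of all genes were lower than at 0h. Of 21 collagen genes tested of 25, 10 were lower at 24h and 0 passed at 7d (median -0.19, or -0.03 without 7d replicate 2 and -0.04 without 0h replicate 1), and 3 were higher at 7d than at 24h. One of them was Col4a4, a basement membrane chain, with 5.54 ± 0.63 TPM at 0h, 1.89 ± 0.0518 at 24h and 3.94 ± 1.13 at 7d (0.93 on the log2 scale, adjusted p = 0.00261 for 7d against 24h). Of 48 cell cycle genes tested of 60, 0 passed at 7d (median 0.06), and 8 were higher than at 24h. Ccne2, a cyclin, measured 3.91 ± 0.863 TPM at 0h and 2.3 ± 0.722 TPM at 7d (adjusted p = 0.13). Of 24 tubulin and cytoskeleton genes, 13 were lower at 24h, 0 passed at 7d (median 0.02) and 9 were higher than at 24h. Tuba1b measured 155, 126, 103 and 125 TPM at 0h, 53.9 ± 18.3 TPM at 24h and 141, 189, 146 and 157 TPM at 7d (1.46 on the log2 scale, adjusted p = 9.46e-06 for 7d against 24h). Of 17 genes of endothelial tip cells and apelin signalling, 10 were lower at 24h, 0 passed at 7d (median -0.18) and 4 were higher than at 24h; Notch1 measured 16.3 ± 2.92 TPM at 0h and 10.6 ± 2.62 TPM at 7d (adjusted p = 0.0507).

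**Figure D5:**
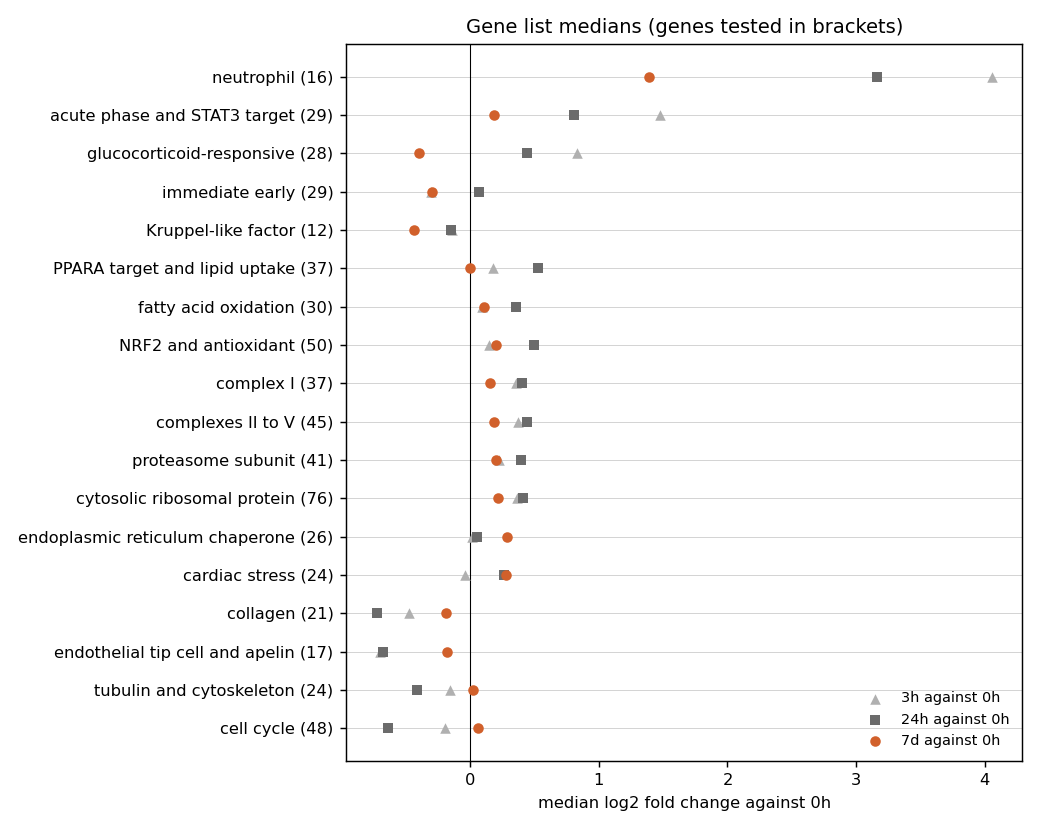
Median log2 fold change of 18 gene lists at 3h, 24h and 7d against 0h, with the number of genes tested in brackets; the 3 comparisons share the 0h libraries. The 7d medians lie between -0.44 and 0.28 except that of the neutrophil list at 1.39.

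Genes of protein synthesis, protein breakdown and respiration had small positive medians at 7d with almost no calls. The medians were larger at 24h and 3h, which share the 0h libraries, at 0.39 and 0.22 for the proteasome. They were 0.41 and 0.37 for the cytosolic and 0.18 and 0.26 for the mitochondrial ribosome. For complex I they were 0.40 and 0.35, and for complexes II to V 0.44 and 0.37. Over all genes tested 0.219% rose at 7d and 49.6% were positive, as were 70.9% of the shortest class of coding genes. Of 41 proteasome subunits, 1 rose, 0 fell, 40 had a positive log2 fold change and the median was 0.20. The riser was Psmd13, of the regulatory particle, with 65.2, 66.8, 62.3 and 62.2 TPM at 0h and 78.9, 87.6, 80.4 and 81.4 TPM at 7d, with no overlap (adjusted p = 0.0432 at a log2 fold change of 0.45 ± 0.11 SE). Of 76 cytosolic ribosomal protein genes, 0 passed and 70 were positive (median 0.22, or 0.08 without 7d replicate 2), and of 77 mitochondrial ones 0 passed (median 0.11). Complex I (37 genes, median 0.15, or 0.08 without 7d replicate 3) and complexes II to V (45 genes, median 0.18) held 0 calls; Ndufv1, a core subunit of complex I, measured 947, 873, 908 and 888 TPM at 0h and 1080.2, 1114, 1074 and 1084 TPM at 7d (0.36 on the log2 scale, adjusted p = 0.102). Its 7d libraries all lay above those of 0h. With the length trend removed the medians were 0.19 for the proteasome and 0.19 for the cytosolic ribosome, and with limma on log2(TPM + 1) 0.10 for both. Psmd13 kept its call only without 7d replicate 4 when 1 library was left out (adjusted p up to 0.156).

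Chaperones of the endoplasmic reticulum (26 tested) had 0 calls and a median of 0.28, beside 0.05 at 24h. Their median was 0.07 without 7d replicate 2, where their summed TPM was 5094, the highest of the 4 at 7d. Hsp90b1, a chaperone of the HSP90 family, measured 305, 279, 286 and 315 TPM at 0h and 422, 640.3, 303 and 311 TPM at 7d (0.60 on the log2 scale, adjusted p = 0.183), high in replicates 1 and 2 and at the 0h level in replicates 3 and 4. Pdia6, a disulfide isomerase, followed it, with 119, 170.1, 94.9 and 102 TPM at 7d (adjusted p = 0.163). In glucose use, Eno1, the enolase of glycolysis, rose (68.9, 53.7, 56.7 and 53.1 TPM at 0h and 69, 67.4, 67.3 and 82 TPM at 7d; adjusted p = 0.0387 at a log2 fold change of 0.39 ± 0.09 SE), though 0h replicate 1 lay inside the 7d range. Eno1 kept its call only without 0h replicate 1 or 7d replicate 1 when 1 library was left out (adjusted p up to 0.131). Eno1 was the 1 call among 38 glycolysis genes, whose median was 0.13. Slc16a1, a lactate transporter, just missed the threshold (121 ± 11.1 against 171 ± 22.9 TPM; 0.59 on the log2 scale, adjusted p = 0.0507), and was above 24h (adjusted p = 0.00121). Fth1, the ferritin heavy chain, missed it too, at 2143, 2121, 2015 and 2131 TPM at 0h and 3391, 3894, 2783 and 2475 TPM at 7d (0.67 on the log2 scale, adjusted p = 0.0523).

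No cardiac stress gene passed the test, and several were highest in 1 of the 7d libraries. Myh7 (ENSMUSG00000053093, chromosome 14, 54970684 to 54994626, - strand), which encodes the beta myosin heavy chain, measured 49.2, 38.3, 99.8 and 35.2 TPM at 0h and 387, 4062, 172 and 30 TPM at 7d. One 7d library lay far above the rest and 7d replicate 4 below every 0h library (adjusted p = 0.0926 at a log2 fold change of 4.55 ± 1.19 SE). Without 7d replicate 2 the log2 fold change was 1.89 (adjusted p = 0.29), without 7d replicate 4 it was 4.95 and called (adjusted p = 0.0276), and DESeq2 called it over all libraries (adjusted p = 0.000481).

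Nppb and Nppa encode natriuretic peptides released by strained heart muscle and were chosen after their values were seen. Nppb measured 946, 996, 1604 and 1466 TPM at 0h and 2496, 5571, 1513 and 1312 TPM at 7d (adjusted p = 0.308). Nppa measured 452, 526, 1449.7 and 485 TPM at 0h and 533, 2760.3, 813 and 972 TPM at 7d (adjusted p = 0.419). Both were highest in 7d replicate 2 and overlapped between groups. Of 27 cardiac stress genes, 24 were tested; 0 passed, 17 were positive and the median was 0.27, or 0.14 without 7d replicate 2. For 7 of the 24, 7d replicate 2 held the highest value of all 16 libraries. Lgals3, galectin-3, measured 8.33, 5.05, 7.1 and 5.66 TPM at 0h and 15.9, 12.3, 10.6 and 7.63 TPM at 7d (0.90 on the log2 scale, adjusted p = 0.134). Xirp2, of the intercalated disc, measured 269 ± 69.8 and 167 ± 28.7 TPM (adjusted p = 0.0991).

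Among 24 cardiomyocyte genes 1 rose, Irx4, 0 fell and the median was 0.06. Tnnt2, cardiac troponin T, measured 3699 ± 139 and 4375 ± 588 TPM (adjusted p = 0.202). Calcium handling (39 tested of 40, median -0.06), ion channel (38 of 42, median -0.07) and adrenergic and muscarinic signalling genes (32 of 34, median -0.07) held 0 calls.

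The endothelial list held 1 call and the other stromal and vascular lists described here 0. Of 27 endothelial genes, 1 fell, Ptprb, the vascular endothelial tyrosine phosphatase (73.6, 61.1, 68.4 and 53.4 TPM at 0h and 50.8, 28, 32.9 and 45.9 TPM at 7d, without overlap; adjusted p = 0.0272 at a log2 fold change of -0.61 ± 0.13 SE), and the median was -0.16. It was not called after the length trend was removed (adjusted p = 0.0613). Ptprb kept its call only without 0h replicate 4 or 7d replicates 1 or 4 when 1 library was left out (adjusted p up to 0.0993). Aqp1, a water channel of the endothelium, measured 776, 698, 766 and 637 TPM at 0h and 494, 409.6, 424 and 478 TPM at 7d and missed the threshold (-0.58 on the log2 scale, adjusted p = 0.0611), while it was below its 24h level (adjusted p = 0.00755). Summed TPM of the endothelial list was 4123 to 5281 at 0h and 3574 to 4343 at 7d. Fibroblast (17 tested of 18, median 0.05), activated fibroblast (23 of 25, median -0.07) and pericyte and smooth muscle genes (19, median -0.03) held 0 calls.

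In the matrix list (50 tested of 54), 1 gene fell, Fmod, fibromodulin, which binds collagen fibrils (0.83, 2.15, 0.913 and 1.89 TPM at 0h and 0.36, 0.417, 0.0753 and 0.291 TPM at 7d; adjusted p = 0.042 at a log2 fold change of -2.18 ± 0.52 SE), and the median was -0.06. It was also below 24h (adjusted p = 0.0178). Fmod kept its call only without 0h replicate 1 when 1 library was left out (adjusted p up to 0.144). Aspn, asporin, measured 83.3, 82.9, 84.9 and 78.3 TPM at 0h and 42.3, 36.6, 62 and 66.8 TPM at 7d (-0.57 on the log2 scale, adjusted p = 0.0601). Timp4, a protease inhibitor of the heart, measured 63.3, 63.9, 83.8 and 45.6 TPM at 0h and 8.83, 26.5, 18.2 and 32.2 TPM at 7d (-1.47 on the log2 scale, adjusted p = 0.0868). Both were apart between the groups without passing the test.

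Upk3b, a marker of the mesothelium that covers the heart, fell (0.707, 2.66, 3.85 and 4.47 TPM at 0h and 0.506, 0.717, 0.282 and 0.0681 TPM at 7d; adjusted p = 0.0244 at a log2 fold change of -2.70 ± 0.58 SE), with 0h replicate 1 inside the 7d range. Msln, another mesothelial marker, measured 0.489, 1.37, 2.09 and 3.11 and 0.291, 0.525, 0.244 and 0.0784 TPM (-2.40 on the log2 scale, adjusted p = 0.0774). For both, 0h replicate 1 was the lowest 0h library. Upk3b lost its call without 0h replicates 2, 3 or 4 or 7d replicate 3 (adjusted p up to 0.0875). Of 12 mesothelial and epicardial genes tested of 18, 1 fell, 0 rose and the median was 0.15. How much surface tissue each sample held was not tested. Atrial genes (15 tested of 17) held 0 calls at 7d, and 5 were lower than at 24h, where Myl7 reached a mean of 89.1 TPM.

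Immune lists other than those above held 0 calls at 7d: complement (17 tested of 22, median 0.21), interferon-stimulated (49 of 51, median 0.01), MHC class II (10 of 11, median -0.24), chemokines (23 of 26, median 0.11), lymphocytes (12 of 24, median 0.22) and leukocyte adhesion (20 of 21, median 0.06). The lymphocyte median was -0.04 without 7d replicate 4, and that of MHC class II was -0.03 without 7d replicate 2. C4b, a complement component made in the heart, came closest, with 8.76, 5.51, 13.4 and 4.67 TPM at 0h and 21.1, 29.2, 14.9 and 11.2 TPM at 7d (adjusted p = 0.0601 at a log2 fold change of 1.36 ± 0.33 SE); 0h replicate 3 lay inside the 7d range. Tlr4, a receptor for S100A8/A9 and bacterial lipid, measured 16.3, 14.8, 21.2 and 15.9 TPM at 0h and 9.75, 11.3, 7.49 and 12.3 TPM at 7d, apart but not called (-0.64 on the log2 scale, adjusted p = 0.07). Irf7, a regulator of interferon genes, measured 11.8 ± 0.825 and 16 ± 1.96 TPM (adjusted p = 0.0775) and was above 24h (adjusted p = 0.0309). Liver (16 tested of 25), erythroid (8 of 14), platelet (5 of 10), skeletal muscle (11 of 18), fat (13 of 18) and nerve genes (12 of 17) held 0 calls too.

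The remaining lists held 0 calls at 7d as well. Among cells, matrix and clotting these were monocyte (12 tested of 16, median 0.06), matrix protease (36 tested of 36, median -0.04), lymphatic (9 tested of 9, median -0.20), coagulation (18 tested of 24, median -0.02) and S100 and annexin (23 tested of 23, median 0.11) genes. In metabolism they were tricarboxylic acid cycle (28 tested of 28, median 0.10), cholesterol synthesis (25 tested of 26, median 0.12), amino acid and ketone breakdown (32 tested of 34, median 0.06), mitochondrial biogenesis (32 tested of 33, median 0.08) and iron (25 tested of 26, median 0.02) genes. Among stress responses and regulators they were heat shock (35 tested of 35, median 0.08), p53 target (27 tested of 28, median -0.03), metallothionein (11 tested of 12, median -0.20), circadian clock (21 tested of 23, median -0.05), hypoxia (30 tested of 31, median 0.03), FOXO and autophagy (42 tested of 42, median 0.03) and cell death (36 tested of 38, median -0.06) genes. Lipogenesis (25 tested of 26, median 0.01) held 1 call, Mid1ip1.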

How the data were processed

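RNA of the left ventricle was sequenced in 16 libraries, 4 at each time, with a strand-marking polyA kit per the labels. The authors trimmed reads with cutadapt and aligned them with STAR to mm10, per the submitters' processing notes. Not given in the sources used here: how reads were counted, whether by strand, and which tool versions ran. The name of the deposited table carries the tag Ens111, while the notes name mm10, and which annotation was counted could not be settled. The deposited table holds, per the file headers, raw counts, FPKM and TPM per gene and library, without pooling. Its name also carries the tag wo_mito, read here as without genes of the mitochondrial genome. Total counts and TPM would then leave those genes out. The deposited FPKM values were not used. The TPM values of the authors equal those computed from the deposited counts and gene lengths, to a relative difference of at most 5.2e-15. Column names carry a different study prefix from the sample titles and were matched by time and replicate number, and the group of each library is the time in its title.

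Genes with a mean TPM of at least 0.5 over all 16 libraries were tested with edgeR 4.0.16 (quasi-likelihood F test, TMM scaling, R 4.3.3), 1 model over the 4 times with 1 coefficient per time, and p-values were adjusted over all genes by the Benjamini-Hochberg method at 0.05. All 4 times enter so that they share 1 estimate of the spread. Alternatives were other scalings, DESeq2 1.42.0, limma 3.58.1, other filters, the 0h and 7d libraries alone, quality weights, a replicate block, Myl7 as a covariate, a gene-length correction per library, and each library left out. The model was tested on a single set of simulated counts, with changes at 7d placed in genes that were not of low count. It recovered 37.3% of 1.5-fold, 64.2% of 2-fold and 93.9% of 4-fold changes, and 8.45% of its calls were false. A gene that did not pass may thus have changed. Intervals and floors (95%, exact; 3 counts over a group) cover counting error only.

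The genes named are those of the title, the 15 that rose most and the 15 that fell most among called genes with a mean of at least 2 TPM in a group, no overlap and a standard symbol, the 10 genes of smallest p, and in each gene list up to 5 genes of smallest p, of which the text gives only a part. Genes given with a test outside this rule are marked in the text as chosen after their values were seen. The genes, lists and comparisons were chosen with earlier results of these data known. Places, biotypes and exons are from GENCODE M21 (GRCm38), which matched 95.7% of the tested gene IDs. Upstream sequences are from RefSeq (GRCm38.p6).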

Additional observations from a re-analysis of the deposited data

Results flagged for a closer look

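In 224 groups of 4 libraries (total counts, and TPM of the genes named with values in the text, at 0h and at 7d), 20 had 1 library apart from the other 3 by a gap past the 95% critical value of Dixon for the range of 4. Chance flags about 1 in 20 groups. In 7d replicate 2 these were Myh7 (4062 TPM), Gdf15 (33.2 TPM), Klf6 (76.7 TPM), Cxcr2 (1.28 TPM), Alb (0.196 TPM) and 4632418H02Rik (0.676 TPM). Elsewhere at 7d they were Phlda1 (39.9 TPM), Gm37352 (2.46 TPM) and Gm48880 (0 TPM) in replicate 1, and Eno1 (82 TPM) and Tagap (1.09 TPM) in replicate 4.

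At 0h replicate 3 stood apart for Nppa (1449.7 TPM), Scand1 (134 TPM), Myl7 (9.59 TPM) and Gm37352 (5.53 TPM). Replicate 1 did for Adipoq (3.97 TPM), Chil3 (0.153 TPM) and Saa3 (0.0957 TPM), and replicate 4 for Alb (0.281 TPM) and Gm37677 (3.01 TPM). For Chil3 and Saa3 at 0h and for Alb in both groups the other libraries held no read. Any read then sets the flag, so the chance rate given above does not hold for these.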

How the results depend on the processing

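Against 189 calls (37 higher, 152 lower), DESeq2 called 481 genes (176 and 305), limma-voom 132, of which 19 higher, and limma on log2(TPM + 1) and log2(TPM + 0.1) 53 (1 and 52) and 27 (0 and 27). With every gene with a count tested, 289 were called, 68 of them higher; from a mean TPM of 2, 107 (23 and 84). The 0h and 7d libraries fitted alone gave 344 (88 and 256) and library quality weights 351 (99 and 252). The gene-length correction left 94 lower. Without TEC genes, an alternative chosen after seeing the data, as was an older version of the test (145 calls), 101 were called (21 and 80). With 1 library left out there were 35 to 298 calls, 3 to 101 higher and 32 to 197 lower; 0h replicates 1, 2, 3 and 4 and 7d replicates 1, 2, 3 and 4 each moved the total by over 1.5 times, named with their counts in the results. Other scalings and a fit without robust variance stayed within 1.5 times. No gene changed sign while called; of 16942 values under alternatives 655 lost and 258 gained a call. The cause of these differences was not tested, apart from the fewer genes or samples that a filter or an omission leaves. Low counts limit the TEC genes and neutrophil genes.

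Replicate numbers did not pair the libraries: correlations of same-numbered deviations were -0.0871 to 0.0222, and 0 of 8 libraries correlated best with their own number. A fit with the replicate number as a block called 94 genes (13 higher, 81 lower).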
